A study of Rattus norvegicus with 6 samples.

Results

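Acinar cells make up most of the exocrine pancreas and fill the duct with digestive enzymes, while the islets sampled here are the endocrine part of the same organ. The sites described here are all chromatin accessible sites (ACS) whose nearest gene in the deposited annotation was one of 9 acinar genes, namely the enzymes *Cpa1*, *Cpb1*, *Ctrb1*, *Cel* and *Pnlip* and the transcription factors *Ptf1a*, *Bhlha15*, *Nr5a2* and *Rbpjl*. They came to 89 of 101603 distinct ACS, with 11 at enzyme genes and 78 at the genes of the regulators. *Ptf1a* held 40 sites, *Nr5a2* 31, *Ctrb1* 6, *Bhlha15* 4, *Rbpjl* 3, *Cpa1* 2, *Pnlip* 2 and *Cpb1* 1. Of the entries of the table, 0 named *Cel* as nearest gene, and *Cel* was not analysed here.

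Accessibility was measured by ATAC-seq, in which the Tn5 transposase integrates adapters into open chromatin, in dissociated and unsorted islet cells of Sprague-Dawley rats. The Adult group held 3 libraries (replicates 4, 5 and 6), each from an adult male rat about 3 months old. The P10 group held 3 libraries (replicates 1, 2 and 3), each from pooled pups of a litter 10 days after birth, of both sexes by the description of the animals. No transgene or treatment is named for either group. The adult pancreas was filled with collagenase through its duct and pup pancreas was shaken in collagenase by hand, and islets of both ages were then separated on a density gradient and picked by hand. Age, sex, single rats against pooled litters and the way of digestion differ together between the groups and cannot be told apart. In such bulk samples, fewer cells of a type and less accessible chromatin per cell cannot be told apart either.

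In acinar cells, PTF1A and RBPJL are subunits of the PTF1 complex, which binds an E-box next to a TTTCCCA box in the promoters of digestive enzyme genes. BHLHA15, also called MIST1, is a basic helix-loop-helix factor that scales up the secretory machinery, and NR5A2 is an orphan nuclear receptor that binds enzyme genes together with PTF1. PTF1A is also needed earlier, for the pancreas to form at all. An open promoter or enhancer of such a gene in an islet preparation can be read in cells of any type that the preparation holds.

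The promoters show how differently these genes begin, and 4 of them are printed here. *Bhlha15*, *Ptf1a* and *Rbpjl* had an ACS at or near their starts, as did *Nr5a2*, which is not printed. The enzyme gene *Ctrb1* had none there, like the other enzyme genes with any site. Each line gives the 250 bases upstream of the gene start in RefSeq's annotation of the assembly GRCr8, 5′ to 3′ on the strand of the gene. They lie at chr12:15538300-15538549 (minus strand), chr17:86959371-86959620 (plus strand), chr3:173553248-173553497 (plus strand) and chr19:56566979-56567228 (minus strand) in the order printed. Capitals mark matches, on either strand, to the E-boxes CAGCTG and also CATATG, the box of PTF1 read as TTTCCCA and the NR5A2 core read as AAGGTCA, as well as the TATA box TATAAA and the general E-box read as CANNTG.
Bhlha15: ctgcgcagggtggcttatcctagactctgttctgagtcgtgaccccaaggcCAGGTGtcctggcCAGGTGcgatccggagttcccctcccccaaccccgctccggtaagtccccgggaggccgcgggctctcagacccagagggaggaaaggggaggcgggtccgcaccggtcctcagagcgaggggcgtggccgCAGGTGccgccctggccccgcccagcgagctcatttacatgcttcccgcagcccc
Ptf1a: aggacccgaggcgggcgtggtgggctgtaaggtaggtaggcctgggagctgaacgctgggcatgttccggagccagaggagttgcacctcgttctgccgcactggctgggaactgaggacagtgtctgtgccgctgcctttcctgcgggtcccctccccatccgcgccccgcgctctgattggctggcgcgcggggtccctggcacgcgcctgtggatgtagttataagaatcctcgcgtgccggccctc
Rbpjl: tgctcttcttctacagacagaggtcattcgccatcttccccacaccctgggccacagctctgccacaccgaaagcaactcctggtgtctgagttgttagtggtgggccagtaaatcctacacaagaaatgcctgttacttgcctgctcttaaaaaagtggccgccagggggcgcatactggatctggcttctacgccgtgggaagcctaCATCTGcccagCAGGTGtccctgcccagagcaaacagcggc
Ctrb1: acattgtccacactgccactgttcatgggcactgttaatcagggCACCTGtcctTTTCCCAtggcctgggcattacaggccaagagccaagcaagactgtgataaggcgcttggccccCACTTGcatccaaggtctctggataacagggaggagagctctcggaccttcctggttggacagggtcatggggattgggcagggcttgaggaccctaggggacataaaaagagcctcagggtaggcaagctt

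Positions are counted from the gene start, with -1 as the base before it. *Bhlha15* held 3 E-boxes, all with the letters CAGGTG, at -199, -186 and -55. *Rbpjl* held 2 E-boxes, at -41 and -30. *Ctrb1* held an E-box (CACCTG) at -206 and the letters TTTCCCA at -196, the pair that the PTF1 complex is known to bind, and a second E-box at -132.

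*Ptf1a* held none of the letters searched in this window. The *Ptf1a* and *Bhlha15* windows were rich in G and C (66.8% and 69.6%, with 21 and 19 CpG dinucleotides), above the median of 51.2% and 5 CpG over 33469 rat promoters. *Rbpjl* had 56.0% with 7 CpG and *Ctrb1* 55.6% with 2. Of all promoters of this length, 65.5% held CANNTG, 12.0% CAGCTG, 3.63% CATATG, 7.10% TTTCCCA, 3.99% AAGGTCA and 12.9% the TATA box. The general E-box takes in both specific ones. All 9 genes were matched in the promoter table. The TATA box was found at *Pnlip* and *Cpb1*, and the E-box CAGCTG at *Cpa1*. *Cel* held TTTCCCA at -106 and AAGGTCA at -48, both on the other strand, and 4 E-boxes. No other member promoter held AAGGTCA. A match is a description of letters and not a measured binding site. The ACS coordinates below are those of Rn5, and gene starts were not matched between the assemblies. Listed gene lengths were equal in both for *Ptf1a*, *Bhlha15* and *Cpa1* and differed for *Cpb1*, *Ctrb1*, *Pnlip*, *Nr5a2* and *Rbpjl*.

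The libraries held between 7916919 and 11903909 integrations in ACS in adults and between 13491534 and 21168463 at P10. Values are integrations per 1e+06 integrations in ACS (CPM), after TMM scaling (a trimmed mean of log ratios between libraries). Changes were tested with edgeR's quasi-likelihood test over all 101603 ACS with Benjamini-Hochberg adjustment, and all adjusted p-values below are from that test. The limits of the study, p under 0.05 together with an adjusted p under 0.2, decided whether an ACS was called Up (more accessible in adults), Down or not called. Log2 fold changes (log2FC) are positive where adults had more, and SE is the standard error of the log2FC. With 3 libraries against 3, the p-values weigh the difference between the groups against the spread between these few samples only. Sites are named by the distance from the gene start in bp that the deposited annotation gives, with a minus sign upstream.

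Of the 89 sites, 6 were called Up and 10 Down. Over all ACS, 12.3% were called Up, 6.63% Down and 18.9% either way, so the share called among the 89 sites (18.0%) was close to that background. The paper reports more Down than Up sites at these limits, and why the split differs here was not tested. The median log2FC of the 89 sites was -0.02, beside -0.01 over all ACS, and single values ran from -1.57 to 2.43. The Adult and P10 ranges did not overlap at 21 sites, where adults were lower at 14 and higher at 7. Over all ACS the ranges did not overlap at 24.7%, with adults lower at 10.9% and higher at 13.8%. Enzyme genes held 1 Up and 1 Down site of 11, and genes of regulators 5 Up and 9 Down of 78.

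**Figure D1:**
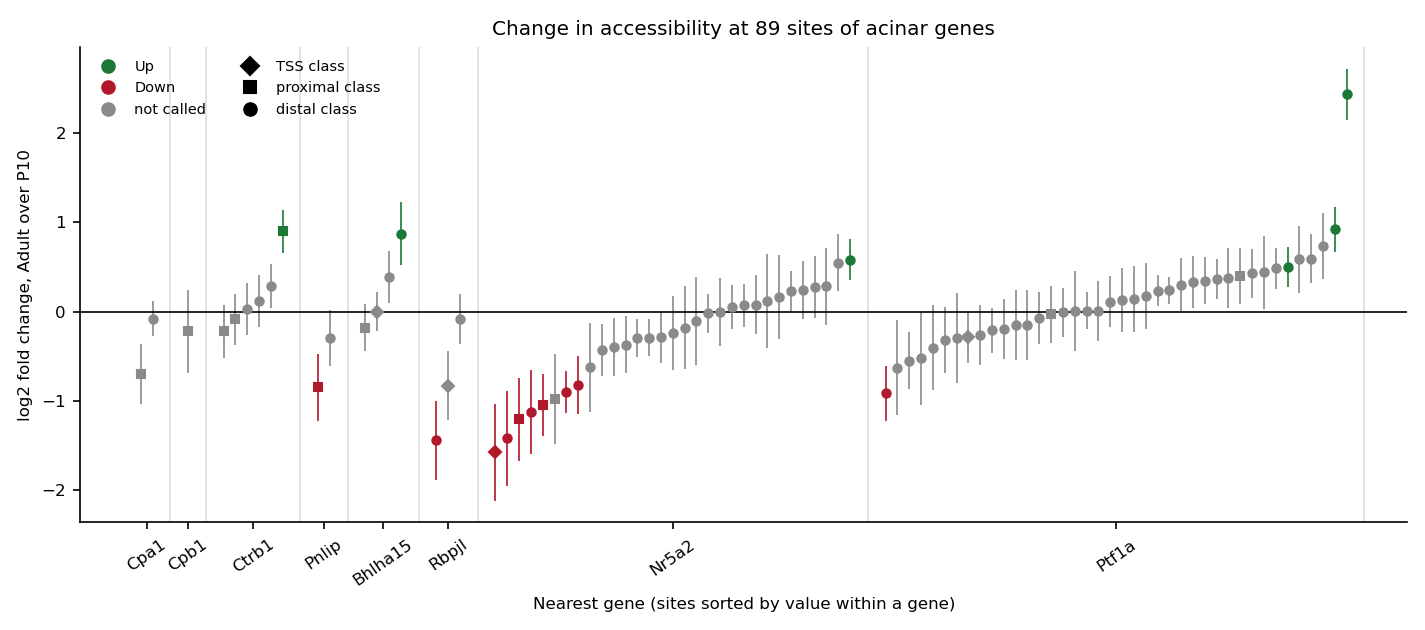
Log2 fold change (Adult over P10, y axis) of each of the 89 sites, sorted by value within its nearest gene (x axis), with bars of 1 standard error. Green marks Up, red Down and grey sites not called, diamonds mark the TSS class, squares the proximal class and circles the distal class. *Nr5a2* has 7 Down sites and 1 Up, and the highest value of all, 2.43, belongs to *Ptf1a*.

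The sites were also counted by class, without a test between classes. The table puts each ACS in a class at a transcription start site (TSS), proximal or distal. Of the 89 sites, 4 were TSS, 12 proximal and 73 distal. Each of the 4 regulators had 1 TSS site, and the 4 enzyme genes with any site had 0. The TSS sites gave 0 Up and 1 Down, the proximal sites 1 Up and 3 Down, and the distal sites 5 Up and 6 Down. The background by class was 2.73% Up and 7.87% Down at TSS sites, 11.2% and 6.71% at proximal sites and 13.8% and 6.45% at distal sites.

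Other acinar secretory genes also had few sites at their starts. Of 28 other acinar secretory genes, 17 had a site and only *Cckar*, the cholecystokinin receptor of acinar cells, had any in the TSS class. Of 7 other acinar regulators, 4 had a TSS site (*Gata4*, *Rbpj*, *Tcf12* and *Xbp1*), which are transcription factors also used outside acinar cells. Of 12 endocrine genes, 9 had a TSS site. These included *Ins1*, *Ins2*, *Gcg*, *Sst* and *Pdx1*, the hormone genes and a transcription factor that define islet cells. The endocrine genes *Ppy*, *Chga* and *Pcsk1* had no site at all. Whether genes without any site were named in the annotation was not tested. For such genes, the lack of a site therefore does not show a closed start. The 9 endocrine TSS sites held 33.6 ± 4.89 CPM per kb (SD, n = 3) in adults and 42.4 ± 9.80 CPM per kb (SD, n = 3) at P10. The 4 TSS sites of the acinar regulators held 14.7 ± 2.68 CPM per kb (SD, n = 3) in adults and 16.7 ± 1.53 CPM per kb (SD, n = 3) at P10. The 7 TSS sites of the other acinar regulators held 41.2 ± 3.41 CPM per kb (SD, n = 3) in adults and 37.1 ± 1.68 CPM per kb (SD, n = 3) at P10, a level like that of the endocrine starts. All of these sums overlapped between the ages.

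*Ctrb1*, which encodes the protease precursor chymotrypsinogen B, gave the Up call among the enzymes. Its site 1417 bp into the gene (chr19:54717274-54717626, Rn5) held 15.4, 10.2 and 10.6 CPM in Adult replicates 4, 5 and 6. It held 7.16, 5.85 and 6.40 CPM in P10 replicates 1, 2 and 3. All adult libraries were above all P10 libraries. The means were 12.1 ± 2.87 CPM (SD, n = 3) and 6.47 ± 0.66 CPM (SD, n = 3), a log2FC of 0.90 (SE 0.24, adjusted p = 0.0165). The call held without any 1 library, with a log2FC between 0.68 and 1.01. The other 5 *Ctrb1* sites lay between 11674 bp upstream and 19252 bp downstream of the start. None of these 5 was called, and their log2FC ran from -0.22 to 0.28. The 6 sites summed to 65.8 CPM in Adult replicate 4 and to between 36.1 and 46.1 CPM in the other 5 libraries.

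*Cpa1*, which encodes carboxypeptidase A1, had the most open site of the enzymes. It lay 11270 bp upstream of the *Cpa1* start (chr4:57702629-57703107, Rn5), with its midpoint inside the neighbouring gene *Cpa5*, and was more open per kb than 99.0% of distal ACS. The adult libraries held 43.8, 36.0 and 35.2 CPM and the P10 libraries 57.3, 33.6 and 30.7 CPM. P10 replicate 1 was the highest of all 6, and the other P10 libraries were below every adult library. The log2FC was -0.08 (SE 0.20, adjusted p = 0.877), and it was 0.25 without P10 replicate 1. The second *Cpa1* site, 8085 bp downstream of the start, held 2.44, 2.14 and 2.45 CPM in adults and 5.02, 3.14 and 3.17 CPM at P10. All adult libraries were lower there, and the log2FC of -0.70 (SE 0.33, adjusted p = 0.226) did not pass the limits.

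*Pnlip*, which encodes pancreatic lipase, gave the Down call among the enzymes. Its site 2674 bp upstream (chr1:287157053-287157439, Rn5) held 1.36, 1.36 and 2.32 CPM in adults and 2.18, 3.35 and 3.44 CPM at P10. The ranges overlapped, since Adult replicate 6 was above P10 replicate 1. The log2FC was -0.85 (SE 0.38, adjusted p = 0.178). The call was lost without Adult replicate 4 (-0.72) or 5 (-0.73) and without P10 replicate 2 (-0.78) or 3 (-0.74). A second site 36210 bp upstream was not called (-0.29).

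The single site of *Cpb1*, which encodes carboxypeptidase B1, lay 7710 bp into the gene (chr2:124810481-124810767, Rn5). It held 0.81, 0.88 and 0.77 CPM in adults and 0.70, 1.36 and 0.90 CPM at P10, with overlap. The log2FC was -0.22 (SE 0.47, adjusted p = 0.852). With a mean of 12.5 integrations a library, it was among the least open proximal sites (0.90th percentile per kb), so a change of this size was not detectable at this depth.

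**Figure D2:**
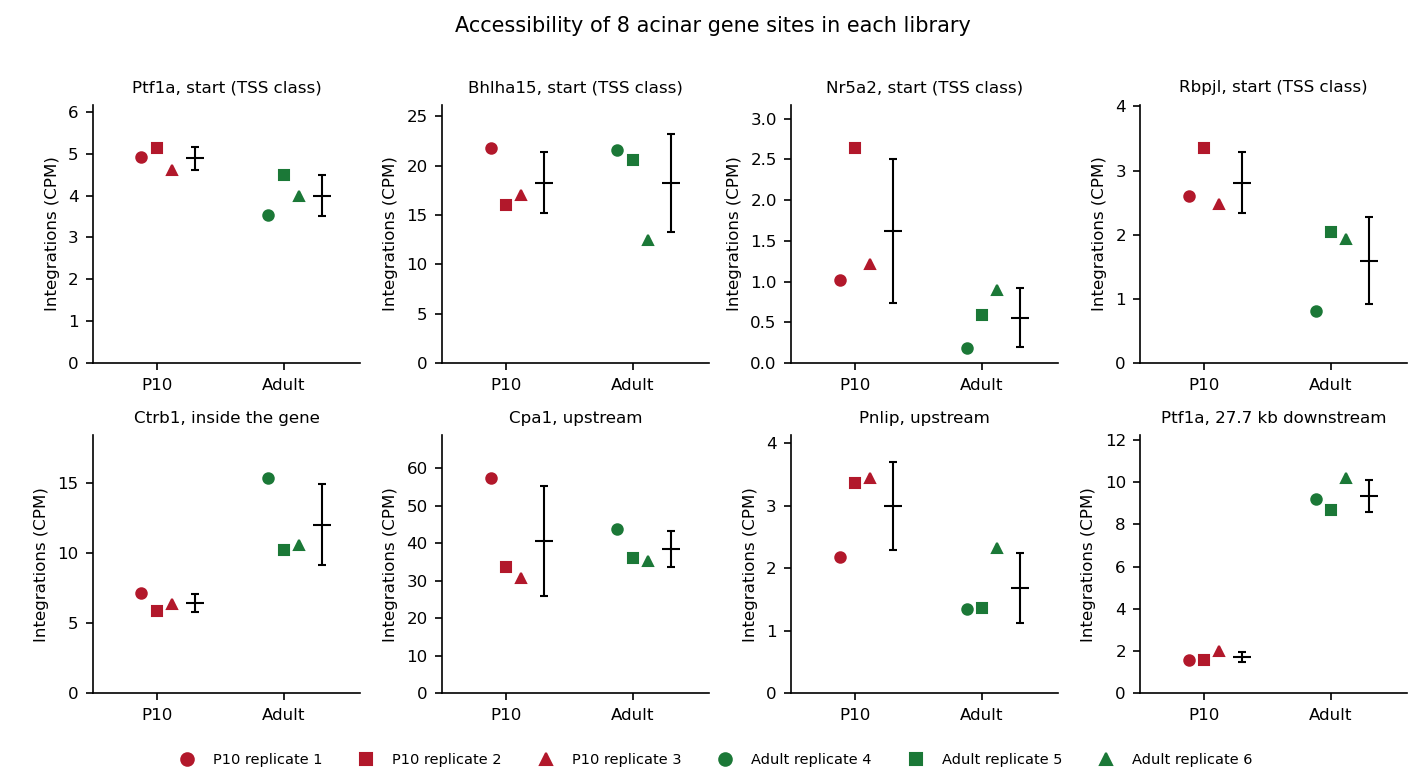
Integrations (CPM, y axis, from 0) in each of the 6 libraries at 8 sites, with P10 in red and Adult in green, 1 marker shape per replicate, and the mean with its SD (n = 3) beside the points in black. The top row holds the TSS sites of the 4 regulators. In the bottom row the ages are apart at *Ctrb1* (6.47 against 12.1 CPM) and at the site 27715 bp downstream of the *Ptf1a* start (1.72 against 9.36 CPM), and overlap at *Cpa1* and *Pnlip*.

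*Ptf1a*, whose protein is the DNA-binding subunit particular to PTF1, held the largest change of the 89 sites. The site 27715 bp downstream of the start (chr17:87938890-87939111, Rn5) held 9.22, 8.67 and 10.2 CPM in adults. It held 1.58, 1.57 and 2.01 CPM at P10. Every adult library was above every P10 library, and the values within each age lay close together. The means were 9.36 ± 0.77 CPM (SD, n = 3) and 1.72 ± 0.25 CPM (SD, n = 3), a 5.40-fold difference with a log2FC of 2.43 (SE 0.29, adjusted p = 2.56e-06). Without any 1 library the log2FC stayed between 2.35 and 2.55. The site is 222 bp wide, lies outside any listed gene, and was in the 85.5th percentile of distal ACS per kb. In humans, *PTF1A* is known to have a pancreatic enhancer downstream of the gene, and whether this rat site corresponds to it was not tested.

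At the start of *Ptf1a* no change was called. The TSS site (chr17:87911542-87911959, Rn5), 367 bp into the gene, held 3.52, 4.48 and 4.0 CPM in adults and 4.93, 5.14 and 4.60 CPM at P10. All adult libraries were slightly lower. The log2FC of -0.29 (SE 0.28, adjusted p = 0.632) did not pass the limits. Per kb, this site was in the 10.5th percentile of the TSS class. The other 8 sites within 50 kb of the start were not called either, and 5 of the 10 sites in that window had a log2FC below 0.

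Farther from *Ptf1a*, 3 sites were called. At 701480 bp downstream (chr17:88612655-88613022, Rn5), adults held 8.40, 9.74 and 10.7 CPM and P10 libraries 4.0, 5.49 and 5.76 CPM, without overlap. Its log2FC was 0.92 (SE 0.25, adjusted p = 0.0201), and the call held without any 1 library. At 646712 bp downstream (chr17:88557887-88558217, Rn5) the direction was the opposite. Adults held 3.89, 4.97 and 1.80 CPM and P10 libraries 7.48, 6.42 and 6.56 CPM, again without overlap. That log2FC was -0.92 (SE 0.31, adjusted p = 0.0594), and the call was lost without Adult replicate 6 (-0.63).

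The site 121319 bp downstream of *Ptf1a* (chr17:88032494-88033225, Rn5) held 21.5, 13.9 and 19.2 CPM in adults and 10.4, 15.3 and 13.1 CPM at P10. The ranges overlapped, since Adult replicate 5 was below P10 replicate 2. It was called Up with a log2FC of 0.50 (SE 0.22, adjusted p = 0.178), and the call held only without Adult replicate 5. Without each other library in turn, the log2FC was between 0.35 and 0.62 and was not called.

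Between these lay the most open *Ptf1a* sites, at 206013 bp and 274482 bp downstream. The first held between 55.0 and 65.5 CPM in adults and between 47.4 and 55.6 CPM at P10 (log2FC 0.24, adjusted p = 0.410). The second held between 28.2 and 32.2 CPM in adults and between 23.6 and 26.5 CPM at P10 (log2FC 0.23, adjusted p = 0.498), without overlap. Neither was called. Over all 40 sites, the median log2FC was 0.12, with 24 above 0 and 16 below, and the sites summed to 281 ± 16.9 CPM in adults and 239 ± 12.2 CPM at P10 (SD, n = 3), without overlap. Only 10 of the 40 sites lay within 50 kb, while 18 lay between 50 and 500 kb downstream and 12 beyond. In the listed Rn5 genes the next gene after *Ptf1a* begins 1502 kb on (*Arhgap21*), whereas RefSeq's GRCr8 annotation lists C17h10orf67 and *Otud1* next to *Ptf1a*. Nearest gene therefore does not say which gene a distal site serves.

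*Nr5a2* held more Down than Up sites. Of its 31 sites, 7 were called Down and 1 Up, the median log2FC was -0.24, and 20 values were below 0, beside 6.63% Down and 12.3% Up over all ACS. The 4 sites within 10 kb of the start all had a log2FC below 0, from -1.57 to -0.98, and 3 of them were called Down. They were shallow, with means from 16.2 to 51.7 integrations a library. Those at 8066 bp and 7815 bp upstream lie side by side (chr13:58918865-58919119 and chr13:58918614-58918843, Rn5) and may not be separate elements. Of 11 sites farther inside the gene, 1 was called Down, and of 16 sites over 100 kb upstream, 3 were called Down and 1 Up.

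**Figure D3:**
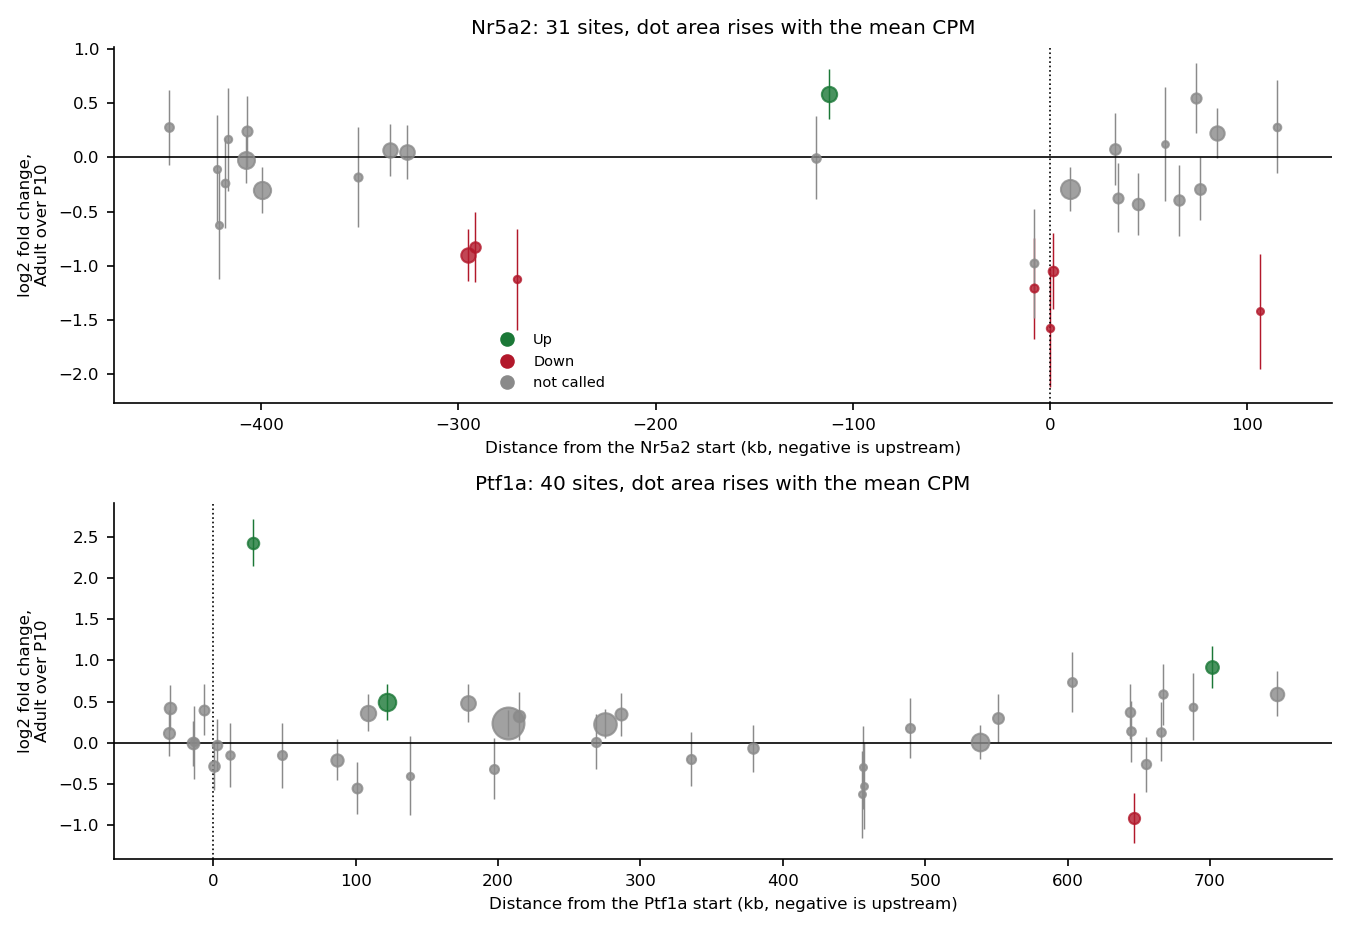
Log2 fold change (Adult over P10, y axis, bars of 1 standard error) against the distance of each site from the gene start in kb (x axis, negative upstream) for *Nr5a2* (top) and *Ptf1a* (bottom), with dot area rising with the mean CPM. Around the *Nr5a2* start 3 of 4 sites are Down (red), and near *Ptf1a* a single Up site (green) at 2.43 stands above its neighbours, of which none is called within 50 kb.

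The TSS site of *Nr5a2* (chr13:58910881-58911102, Rn5) ended 82 bp before the start. It held 0.18, 0.58 and 0.90 CPM in adults and 1.02, 2.64 and 1.22 CPM at P10. All adult libraries were lower, at 2, 6 and 7 integrations against 22, 37 and 23. The log2FC was -1.57 (SE 0.54, adjusted p = 0.0690), and the call was lost without Adult replicate 4 (-1.11) or P10 replicate 2 (-1.08). Per kb it was in the 0.46th percentile of the TSS class, so this start was barely open at either age.

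On the far side of the start, the site 1850 bp into *Nr5a2* (chr13:58908949-58909441, Rn5) held 1.27, 2.92 and 2.32 CPM in adults and 4.83, 3.35 and 5.13 CPM at P10. Adults were lower without overlap. The log2FC was -1.05 (SE 0.35, adjusted p = 0.0562). The call was lost without Adult replicate 4 (-0.76) or P10 replicate 3 (-0.94). The site 8066 bp upstream (chr13:58918865-58919119, Rn5) held 0.45, 1.95 and 0.65 CPM in adults and 1.58, 3.28 and 2.38 CPM at P10. Here Adult replicate 5 was above P10 replicate 1. Its log2FC was -1.21 (SE 0.47, adjusted p = 0.114), and the call held only without Adult replicate 5 or P10 replicate 1. Its neighbour at 7815 bp upstream had a log2FC of -0.98 (adjusted p = 0.268) and was not called.

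A further *Nr5a2* site called Down lay far upstream and was well covered. At 294653 bp upstream (chr13:59205452-59206256, Rn5), adults held 6.33, 5.94 and 8.64 CPM and P10 libraries 11.7, 13.9 and 13.2 CPM. The ages were apart. The means were 6.97 ± 1.46 CPM (SD, n = 3) and 12.9 ± 1.12 CPM (SD, n = 3), a log2FC of -0.90 (SE 0.24, adjusted p = 0.0140), and the call held without any 1 library. A site nearer to the gene, at 291224 bp upstream (chr13:59202023-59202246, Rn5), held 3.43, 4.38 and 1.55 CPM in adults and 5.39, 6.56 and 5.02 CPM at P10. It was lower in all adult libraries, with a log2FC of -0.82 (SE 0.32, adjusted p = 0.117), and its call was lost without Adult replicate 6 (-0.53) or P10 replicate 2 (-0.73).

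Another *Nr5a2* site, at 270151 bp upstream (chr13:59180950-59181161, Rn5), held 0.99, 0.58 and 0.39 CPM in adults and 1.26, 1.36 and 1.85 CPM at P10. Adults were lower in all libraries. The log2FC was -1.13 (SE 0.47, adjusted p = 0.146), and the call held only without Adult replicate 4 or P10 replicate 1. At 106465 bp into the gene (chr13:58804334-58804555, Rn5), adults held 0.63, 0.39 and 0.13 CPM and P10 libraries 1.16, 1.14 and 1.0 CPM, without overlap. That log2FC was -1.42 (SE 0.53, adjusted p = 0.0970), and the call was lost without Adult replicate 6 (-1.09) or P10 replicate 2 (-1.42).

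The Up site of *Nr5a2* lay 111519 bp upstream (chr13:59022318-59022882, Rn5). It held 16.3, 13.9 and 10.8 CPM in adults and 7.62, 9.84 and 10.1 CPM at P10, and the ages did not overlap. The log2FC was 0.58 (SE 0.23, adjusted p = 0.123), and the call was lost without Adult replicate 4 (0.44), P10 replicate 1 (0.45) or P10 replicate 2 (0.61). The most open *Nr5a2* site, 10780 bp into the gene, held 17.1 ± 4.05 CPM (SD, n = 3) in adults and 20.8 ± 1.86 CPM (SD, n = 3) at P10 and was not called (log2FC -0.29, adjusted p = 0.456). Summed over all 31 sites, *Nr5a2* held 148 ± 7.03 CPM (SD, n = 3) in adults and 166 ± 16.6 CPM (SD, n = 3) at P10, with overlap.

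*Bhlha15* was most open at its start, at both ages. The TSS site (chr12:14458857-14459560, Rn5) overlapped the gene start and held 21.6, 20.5 and 12.5 CPM in adults and 21.8, 16.0 and 17.1 CPM at P10. The ranges overlapped fully, with Adult replicate 6 the lowest. The means were 18.2 ± 4.98 CPM (SD, n = 3) and 18.3 ± 3.09 CPM (SD, n = 3), and the log2FC was -0.00 with an SE of 0.22. Per kb this site was in the 53.6th percentile of the TSS class, the highest of the 4 regulators. The other 3 sites had their midpoints inside the neighbouring gene *Lmtk2*, a kinase gene.

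Of these, the *Bhlha15* site 25764 bp upstream (chr12:14484980-14485205, Rn5) held 2.62, 3.31 and 2.58 CPM in adults and 1.63, 1.36 and 1.64 CPM at P10. All adult libraries were higher. It was called Up with a log2FC of 0.87 (SE 0.36, adjusted p = 0.138). The call was lost without Adult replicate 5 (0.75), P10 replicate 2 (0.78) or P10 replicate 3 (0.90). The site 58011 bp upstream held 15.5, 14.7 and 6.57 CPM in adults and 14.3, 6.70 and 7.24 CPM at P10, so the spread within an age exceeded the difference between ages (log2FC 0.38, adjusted p = 0.507).

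*Rbpjl*, whose protein replaces RBPJ in the PTF1 complex of mature acinar cells, had lower values in adults. Its site 15968 bp upstream (chr3:167016482-167016689, Rn5) held 0.63, 0.68 and 1.55 CPM in adults and 2.51, 3.42 and 1.64 CPM at P10. All adult libraries were lower, with Adult replicate 6 just under P10 replicate 3. The log2FC was -1.44 (SE 0.45, adjusted p = 0.0390), and the call was lost without P10 replicate 2 (-1.19).

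The TSS site of *Rbpjl* (chr3:167032315-167032624, Rn5) held 0.81, 2.05 and 1.93 CPM in adults and 2.60, 3.35 and 2.48 CPM at P10. Adults were lower in all libraries, but the log2FC of -0.83 (SE 0.39, adjusted p = 0.213) did not pass the limits. Its midpoint was inside the listed gene *Matn4*, and it was in the 2.64th percentile of the TSS class per kb. Without Adult replicate 5 it was called Down (-1.08). The remaining site, 13385 bp upstream, was not called (-0.08). Over its 3 sites *Rbpjl* summed to 7.74 ± 2.08 CPM (SD, n = 3) in adults and 10.8 ± 0.61 CPM (SD, n = 3) at P10, without overlap.

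**Figure D4:**
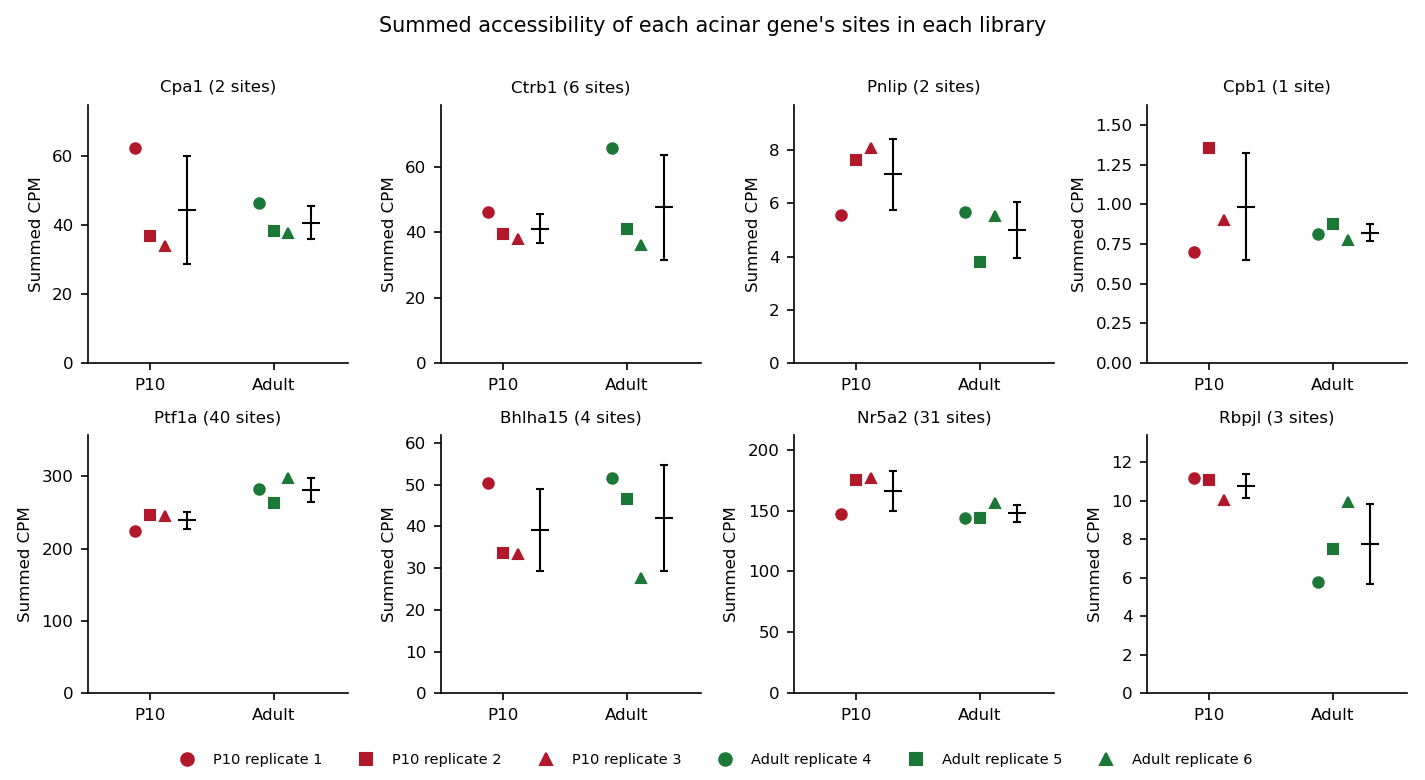
Summed CPM (y axis, from 0) of all sites of each of the 8 genes in each library, with P10 in red and Adult in green, 1 marker shape per replicate, and the mean with its SD (n = 3) in black. The ages do not overlap at *Ptf1a* (281 against 239 CPM) and *Rbpjl* (7.74 against 10.8 CPM), and Adult replicate 4 and P10 replicate 1 are the highest of their ages at *Cpa1*, *Ctrb1* and *Bhlha15*.

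In both ages 1 library stood above the others at some of these genes. The 11 enzyme sites summed to 119, 83.8 and 80.1 CPM in adults and 115, 85.2 and 80.7 CPM at P10, so Adult replicate 4 and P10 replicate 1 were each above the rest of their age while the means of both ages lay close together (94.1 ± 21.2 and 93.5 ± 18.5 CPM, SD, n = 3). Part of these sums came from the upstream *Cpa1* site, whose midpoint is inside *Cpa5*. It held 43.8, 36.0 and 35.2 CPM in adults and 57.3, 33.6 and 30.7 CPM at P10. Adult replicate 4 and P10 replicate 1 were both the highest of their age at 1 of 2 *Cpa1* sites, 4 of 6 *Ctrb1* sites and 3 of 4 *Bhlha15* sites. They were so at 2 of 40 *Ptf1a* and 3 of 31 *Nr5a2* sites, at 0 sites of *Pnlip*, *Cpb1* and *Rbpjl*, and at 13 of all 89 sites, beside 18% of all ACS. By class, they were so at 3352 of 11055 TSS, 2737 of 10005 proximal and 12239 of 80543 distal ACS. The pattern was thus more frequent near genes in the whole table. Endocrine sites within 20 kb of the start or end of their genes showed it as well, at 17 of 31 sites. Their sums were 556, 422 and 477 CPM in adults and 693, 459 and 490 CPM at P10. Sites of the other acinar secretory genes within 20 kb showed it at 7 of 26, with sums of 169, 138 and 163 CPM in adults and 161, 147 and 145 CPM at P10. Sites of the other acinar regulators within that distance showed it at 5 of 20. Marker sites of other cell types showed it less, at 3 of 18 (duct), 2 of 13 (endothelial), 1 of 16 (mesenchymal) and 0 of 8 (immune). The part of the cell make-up of each library in these values was not tested. Without both libraries together, a choice made after seeing the data, 3 sites were called Up and 9 Down. The Up calls at *Ptf1a* 27715 and at *Ctrb1* 1417 were among those kept.

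The sums of regulator sites differed by distance. All 78 sites held 479 ± 15.1 CPM (SD, n = 3) in adults and 455 ± 18.7 CPM (SD, n = 3) at P10, with overlap. Within 20 kb means within 20 kb of the start or the end of a gene, so sites deeper inside a long gene are left out. The 18 regulator sites of this kind held 78.7 ± 0.90 CPM (SD, n = 3) in adults and 93.1 ± 4.91 CPM (SD, n = 3) at P10, without overlap. Of these, 5 were called Down, all at *Nr5a2* and *Rbpjl*, and 0 Up. Over all ACS 6.63% were Down and 12.3% Up, at TSS-class ACS 7.87% and 2.73%, and at proximal ACS 6.71% and 11.2%. The median log2FC of all TSS-class ACS was -0.10. The 18 duct marker sites within the same distance held 113 ± 3.05 CPM (SD, n = 3) in adults and 130 ± 2.09 CPM (SD, n = 3) at P10, also without overlap, and the 16 mesenchymal marker sites 85.0 ± 7.15 CPM (SD, n = 3) and 95.9 ± 2.83 CPM (SD, n = 3). The 13 endothelial sites held more in adults (82.4 ± 0.55 against 76.4 ± 0.36 CPM, SD, n = 3). Over all sites at any distance, the duct and mesenchymal sums went the other way, higher in adults without overlap. They were 350 ± 20.1 CPM in adults against 307 ± 5.49 CPM at P10 for duct markers (SD, n = 3). For mesenchymal markers they were 334 ± 10.0 against 314 ± 5.99 CPM (SD, n = 3). The 20 sites of other acinar regulators within 20 kb (361 ± 31.3 against 335 ± 7.87 CPM, SD, n = 3) and the 8 immune marker sites (77.0 ± 10.7 against 62.0 ± 3.46 CPM, SD, n = 3) had higher means in adults, with overlap. The part of these cell types in the acinar values was not tested.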

How the data were processed

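The authors aligned reads to Rn5 with BWA (0.7.13), discarded reads of mitochondrial origin or poorly mapped with SAMtools (1.3), called ACS with MACS2 (2.1.1) on the concatenated libraries of each age, joined both sets and counted Tn5 integrations per ACS and library with pyDNase. Removal of duplicates was not stated in the sources used here, so errors cover the counts as they stand. They deposited raw counts of integrations, the nearest gene with its distance, and the columns of their own edgeR comparison (log fold change, mean log CPM, F, p-value and FDR), which were not used. Of 101941 entries, 338 repeated an ACS, and 101603 distinct ACS entered the test once each. Groups were taken from the sample titles.

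Counts were tested with edgeR 4.0.16 in R 4.3.3 (estimateDisp, glmQLFit and glmQLFTest), with age as the only term, TMM factors on column sums (0.93 to 1.04) and no filter on low counts. SE was obtained as the log2FC divided by the square root of F. The test was tried on simulated counts. The members and lists were chosen with earlier results of these data known. Full values are given for TSS sites, for called sites, and for the most open site of a gene with neither. The remaining sites that are named were chosen after their values were seen. Marker lists were given as counts and sums, except for the called sites of other acinar genes with the smallest p-values, which are given in full. Alternatives were limma 3.58.1 (voom, cyclic loess), DESeq2 1.42.0, other library sizes, filters, a stricter FDR and leaving out each library. The general E-box and the removal of 2 libraries together were added after seeing the data. Promoter sequences are RefSeq's (GRCr8), motifs were searched in the 250 bases before each start, and no sequence was read at the Rn5 coordinates.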

Additional observations from a re-analysis of the deposited data

How the results depend on the processing

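Of the 21 sites with full values, *Ptf1a* 27715 and *Nr5a2* -294653 kept their direction and call under all 16 alternatives. *Ctrb1* 1417 and *Ptf1a* 701480 lost it only with total sequenced reads as library sizes (0.06 and 0.11), a setting that moved the median of all ACS by -0.83. *Rbpjl* -15968 lost it only without P10 replicate 2, and was too shallow to enter the fit of sites with a mean of at least 50 counts. Counts of called sites are given below as Up and Down, beside 6 and 10 over all sites, 1 and 1 at enzymes and 5 and 9 at regulators. DESeq2 gave 5 and 6 over all sites, and 0 Down at enzymes. It gave no result for the Down sites *Nr5a2* -82, -270151 and 106465, which were counted as not called there. At an FDR under 0.05, 3 and 2 sites passed, with 0 Down at enzymes and 2 and 2 at regulators. TMM factors from TSS-class ACS gave 0 Down at enzymes and 8 Up at regulators, and moved the Up share of all called ACS from 65.0% to 78.7%. Column sums gave 2 Down at enzymes and an Up share of 49.3%, and cyclic loess 0 Down at enzymes, 3 Up at regulators and 54.9%. With voom 0 enzyme sites were Down. Among the 49 sites with a mean of at least 50 counts, 4 were Up and 5 Down, with 0 Down at enzymes and 3 and 5 at regulators. Total reads gave 1 and 56 over all sites, 0 and 8 at enzymes and 1 and 48 at regulators, and 1.69% Up over all called ACS. Without Adult replicate 4 and P10 replicate 1 together, 3 sites were Up, 0 enzyme sites Down and 2 regulator sites Up.

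Leaving out each library gave 3 to 8 Up and 3 to 11 Down over all sites, both lowest without P10 replicate 2, 0 to 1 Down at enzymes, and 2 to 7 Up and 3 to 10 Down at regulators. The direction turned at sites not called in the reported fit. The TSS site of *Bhlha15* was 0.0935 with TSS-class factors and ran from -0.14 to 0.20 when each library was left out, positive without Adult replicate 6 (0.20) or P10 replicate 1 (0.13). The upstream *Cpa1* site was 0.13 without the 2 libraries and 0.0263 with TSS-class factors, and ran from -0.26 to 0.25, positive without P10 replicate 1. The *Cpb1* site was 0.0926 with cyclic loess and ran from -0.44 to 0.0317, positive without P10 replicate 2. With total reads, the called sites *Nr5a2* -111519 and *Ptf1a* 121319 were -0.22 and -0.32. The *Rbpjl* TSS site was called Down with voom (-0.90) and column sums (-0.92). The cause of these changes was not tested. Depth limits the 16 sites with a mean under 20 integrations, where few integrations set the value.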

Other observations

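Other acinar regulators held 88 sites at 7 of 7 genes, of which 13 were called Up and 6 Down, shares near those of all ACS (12.3% and 6.63%). *Rbpj*, whose protein is the Notch effector that RBPJL replaces in PTF1, held 7 of the Up sites and 1 Down site, and *Mecom* 5 Up and 3 Down. The *Rbpj* site 143101 bp upstream (chr14:60002330-60002762, Rn5) held 27.9, 18.8 and 24.4 CPM in adults and 10.8, 9.91 and 8.09 CPM at P10, without overlap (log2FC 1.3, SE 0.21, adjusted p = 0.000165, edgeR). A second *Rbpj* site, 131374 bp upstream (chr14:59990603-59991018, Rn5), held 14.3, 13.8 and 17.3 CPM in adults and 7.48, 7.35 and 7.30 CPM at P10 (log2FC 1.03, SE 0.22, adjusted p = 0.00271, edgeR). The *Cckar* site 13720 bp upstream (chr14:59724323-59724728, Rn5) lies on the same chromosome and held 18.7, 13.5 and 22.6 CPM in adults and 10.1, 7.35 and 8.09 CPM at P10 (log2FC 1.09, SE 0.23, adjusted p = 0.00233, edgeR). All 3 calls held without any 1 library. These 3 sites were picked because they had the smallest p-values among the called sites of the other acinar genes.

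The other acinar secretory genes held 63 sites at 17 of 28 genes, with 3 Up (at *Cckar*, *Gp2* and *Rnase1*) and 9 Down. The Down sites included 2 near *Prss1* and others near *Prss3*, *Pnliprp1*, *Pnliprp2*, *Reg1a*, *Spink3* and *Zg16*, which encode proteases, lipase-related proteins and other secreted proteins. The lists of other cell types gave 10 Up and 14 Down of 109 endocrine sites (9 of 12 genes), 6 and 8 of 53 duct sites (6 of 8), 10 and 2 of 60 endothelial sites (6 of 6), 1 and 2 of 11 immune sites (4 of 6) and 3 and 4 of 44 mesenchymal sites (6 of 7). Over all ACS, 12.3% were Up, 6.63% Down and 18.9% either.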
